A study of Homo sapiens with 6 samples.

Results

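The nuclear oxidative phosphorylation subunits are the proteins of the respiratory complexes and of ATP synthase that are encoded outside the mitochondrial genome, and their genes were 81 of the 16623 genes measured. They were chosen by gene symbol: the numbered NDUF names, SDHA to SDHD, the UQCR names with CYC1, the COX names of subunits 5 to 8, and the ATP5F, ATP5M and ATP5P names. Names joined by a hyphen to a neighbouring gene were left out, and the rule itself uses no measured value. The RefSeq gene table (GRCh38.p14) holds 82 protein-coding genes of these names, of which 1, COX6A2, is not analysed here.

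Complex I takes electrons from NADH and complex II from succinate, and both pass them to ubiquinone in the inner mitochondrial membrane. Complex III hands them on to cytochrome c, complex IV to oxygen, and ATP synthase makes ATP from the proton gradient that complexes I, III and IV build. Most of their subunits are nuclear genes with steady, abundant mRNAs, so they show how far a treatment that changes chromatin reaches into household transcription. The mitochondrially encoded subunits were not analysed here.

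MDA-MB-231 is a human triple-negative breast cancer line with mesenchymal features, and PCI-24781 inhibits histone deacetylases, the enzymes that remove acetyl groups from histones. Cells received the solvent DMSO or PCI-24781 at 100 nM or 200 nM, each for 24 h or for 48 h, and RNA was sequenced to learn which genes the inhibitor changes. There was 1 library per condition, so differences between conditions have no replicates behind them and no p-values were calculated.

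The values are FPKM, that is fragments per kilobase of transcript scaled to the fragments mapped in the library, as the authors calculated them. An FPKM is relative to the rest of the library, so a gene with less RNA per cell cannot be told apart from one whose RNA was diluted by others. The files hold no counts. Sequencing depth, estimated from the spacing of the lowest values, was least for 200 nM 48 h, where 3 fragments from a 1 kb transcript are worth an FPKM of 0.191, against 0.167 to 0.172 in the other 5 libraries.

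The libraries had the profile of the line on the label. Summed over VIM, CD44, AXL, CAV1 and MSN, the mesenchymal markers reached an FPKM of 2803 to 3298, with VIM at 1629 to 2053. The receptor genes ESR1 and PGR did not exceed 0.04, and CDH1 stayed between 0.24 and 0.39, while GATA3 had 0.70 to 1.03, EPCAM 2.26 to 4.70 and ERBB2 13.2 to 21.4. Of the genes marking heart and skeletal muscle, tissues rich in mitochondria, 3 of 4 were measured (ACTA1, CKM and TNNT2), and they summed to at most 0.26. Of the markers of blood, endothelium, connective tissue and liver, PTPRC, PECAM1 and COL1A1 were measured and summed to between 2.85 in DMSO 24 h and 8.94 at 200 nM 24 h, with COL1A1 the most abundant. Their part in the results was not tested.

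One property of the libraries bears on every comparison. Between the DMSO libraries, which differ by label in time only, 286 genes were at least 2-fold higher and 15 at least 2-fold lower at 48 h, out of 11490 genes. The total of 301 was above the 54 for 100 nM 48 h and the 31 for 200 nM 48 h, although 47 of the 54 were lower. Whether time in culture, a fault of 1 library or a swap of labels lies behind this cannot be told. Each PCI-24781 library was therefore read against the DMSO library of its own time, and many changes are also given against the other DMSO library.

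Most subunit genes were among the well expressed genes of the line. Of the 81, 76 had an FPKM of at least 1 in every library, and their mean over the 6 libraries had a median of 74.8, against 13.1 for all 10810 genes above that limit. Together they took 1.59% to 1.69% of all FPKM, less than the cytosolic ribosomal proteins at 11.6% to 12.1% and more than the proteasome subunits at 0.621% to 0.777%.

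The complexes differed in level. The median of the mean FPKM was 129 over 9 subunits of complex IV and 114 over 17 of ATP synthase, but 51.1 over the 36 of complex I, 65.3 over the 4 of complex II and 51.7 over the 10 of complex III. FPKM corrects for transcript length, so these levels can be set side by side, although very short transcripts are estimated less well. Subunits that stand together in 1 enzyme were not at equal mRNA levels: in complex I they spanned 15.2-fold, from 6.96 for NDUFA5 to 106 for NDUFB4. In ATP synthase the span was 4.82-fold, from 55.0 for ATP5MC3, a gene of the membrane ring, to 265 for ATP5F1B, the catalytic beta subunit. In complex IV, COX8A had the highest mean of all members at 341.

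**Figure D1:**
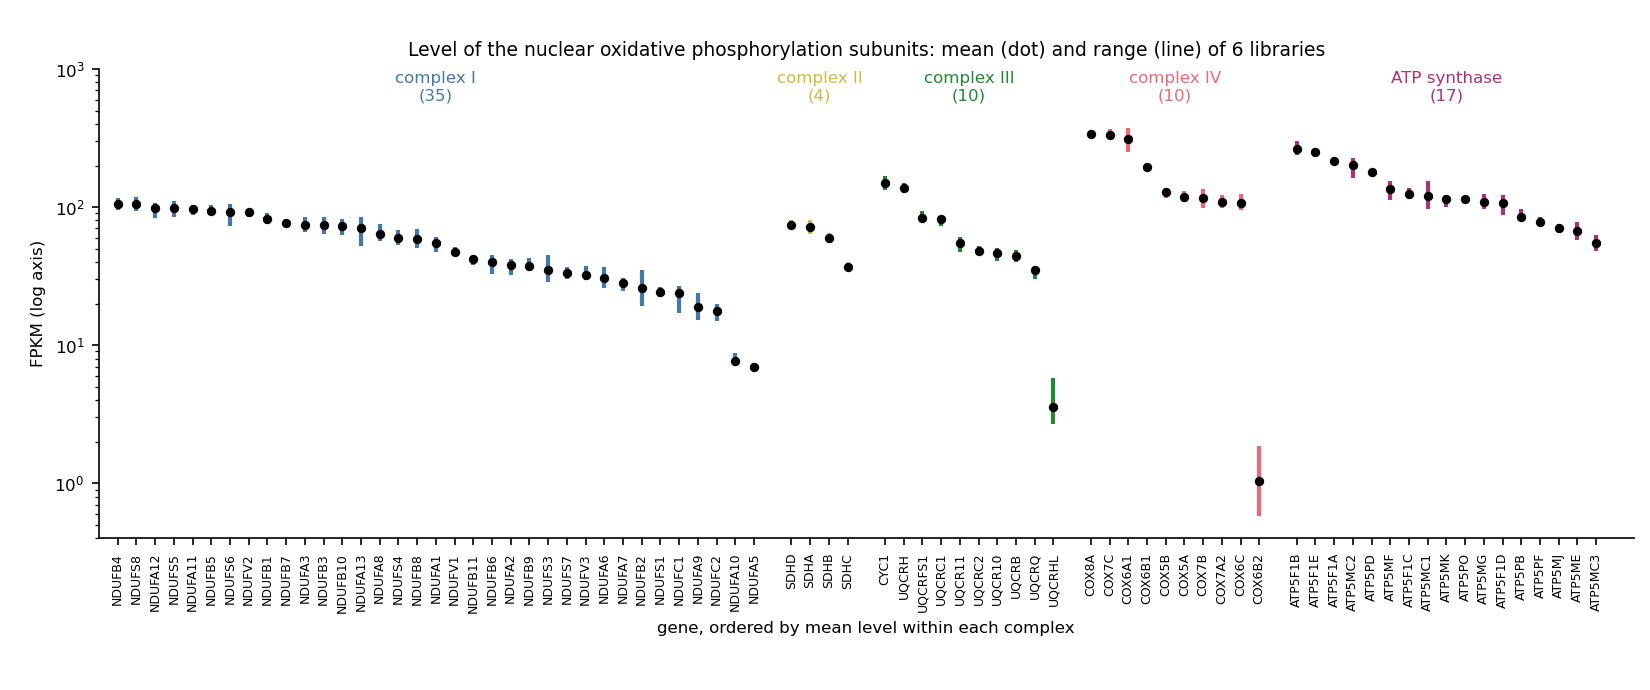
Mean FPKM (dots, log axis) and range over the 6 libraries (lines) of the subunit genes that reached an FPKM of 1 in any library, by complex, with 1 gene of complex I left out. The means of complex IV and ATP synthase mostly lie above 100, those of complex I at or below 106, and only UQCRHL, COX6B2, NDUFA5 and NDUFA10 lie below 10.

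The ranges drawn in the plot of levels by complex are short. Over the 76 genes with an FPKM of 1 or more in every library, the highest library exceeded the lowest by a median of 1.24-fold, against 1.36-fold for the 3951 genes whose FPKM averaged 20 or more and 1.43-fold for all 10810. For 40 of the 76 the ratio was under 5 to 4. ATP5F1A, the alpha subunit of the ATP synthase head, varied least: its FPKM was 221, 217 and 220.4 in DMSO, 100 nM and 200 nM at 24 h and 213, 207 and 221 in the same order at 48 h. Among members with a mean of at least 20, NDUFB2, a small accessory subunit in the membrane arm of complex I, varied most, by 1.82-fold.

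A change is the difference in log2(FPKM + 1) between 2 libraries, taken where either FPKM was 1 or more, which held for 77 members in each comparison. The pseudocount of 1 hardly touches genes at these levels and understates the change of low ones. Counting error alone gave a standard error of this difference with a median over members between 0.055 and 0.059 in the 5 comparisons. It was at most 0.14 for the 75 members of known length with an FPKM of 1 or more throughout, UQCRHL aside. The length used for UQCRHL is longer than the span of its gene, so its error is understated. The lengths used for ATP5MC3 and ATP5F1E, 5484 and 3665 bases, come close to the whole spans of their genes. Their errors may be understated too. Counting error leaves out all variation between cultures. A gene was counted past 2-fold, a change of 1 on this scale, or past the lower limit of 0.32, a ratio of 5 to 4.

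On this scale 0 members reached 2-fold in any comparison. Over all genes the share past 2-fold in either direction was 1.48% with 100 nM and 5.96% with 200 nM after 24 h, 0.469% with 100 nM and 0.266% with 200 nM after 48 h, and 2.62% between the DMSO libraries. Such shares of 77 members come to a few genes at most, so the absence of calls at 2-fold says little by itself.

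At 200 nM 24 h, the library with the widest response over all genes, 8 members were higher by at least 0.32, where 24.6% of all genes were, and 10 were lower by as much, where 20.3% were. The 100 nM 24 h library had 1 such member higher (15.1% of all genes) and 3 lower (7.51%). For 100 nM 48 h there were 0 higher (3.92%) and 3 lower (7.05%), and for 200 nM 48 h 0 higher (6.36%) and 6 lower (3.93%). Between the DMSO libraries 4 members were higher at 48 h (18.7%) and 4 were lower (12.4%), so members also moved this far without the inhibitor.

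Because low genes scatter more, the members were also set beside genes of like abundance, a comparison chosen after the data were seen. Among the 71 members whose FPKM averaged 20 or more, the share past 0.32 in either direction was 4.23% with 100 nM and 21.1% with 200 nM after 24 h, against 15.5% and 40.7% of all 3951 genes at that level. Between the DMSO libraries it was 9.86% against 26.7%. At 48 h it was 4.23% against 6.3% at 100 nM, and 8.45% against 5.92% at 200 nM. The median size of a change, without its sign, was 0.17 for these members and 0.25 for genes of that level at 200 nM 24 h, and 0.10 for both at 200 nM 48 h.

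The median over all 77 members stayed close to 0. It was 0.01 with 100 nM and -0.01 with 200 nM after 24 h, -0.05 and -0.06 in that order after 48 h, and 0.01 between the DMSO libraries, beside medians over all genes of 0.01, 0.01, -0.01, 0.01 and 0.00. The first and the last of these member medians were below 0 after median-of-ratios scaling, at -0.05 and -0.02, where the medians over all genes also went down, to -0.04 and -0.04. That of the members at 100 nM 48 h became -0.01. At 48 h more members were lower than higher, 54 against 23 at 100 nM and 50 against 27 at 200 nM, counting changes of any size. Over all genes the same counts were 6028 against 5435 and 5675 against 5947. Among genes whose FPKM averaged 20 or more they were 2074 against 1870 and 2254 against 1690. Those of them with a transcript of at most 700 bases had 89 against 53 and 96 against 47. These short genes number 143 and include 23 members, while 53 other members have longer transcripts. The median size of the member changes at 48 h, 0.10 at either dose, was under 2 counting standard errors of a single gene. That error does not measure the spread of a count or median over members, and the lean to lower values was not tested.

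**Figure D2:**
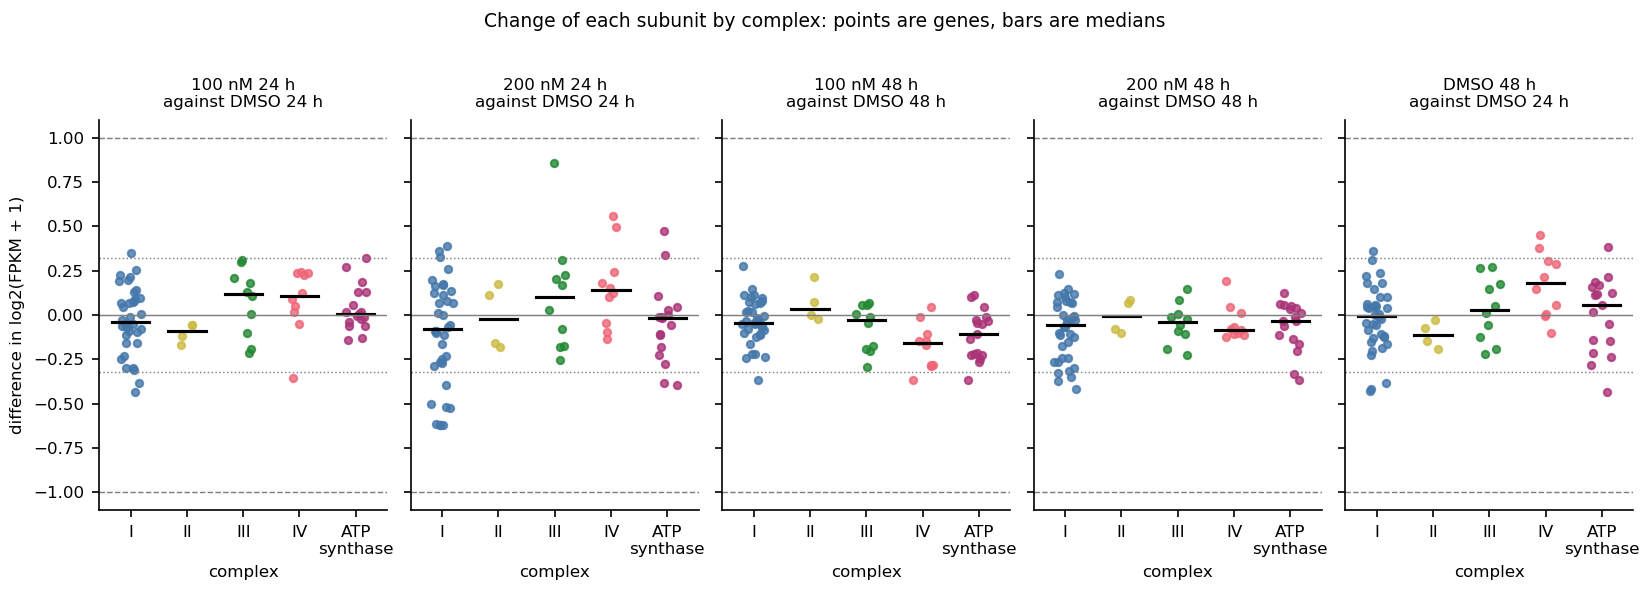
Difference in log2(FPKM + 1) of each subunit gene (points) and the median of each complex (bars) in the 5 comparisons, with dotted lines at 0.32 in each direction and dashed lines at 2-fold. Every point lies inside the dashed lines, complex I has 8 points below the dotted line at 200 nM 24 h, and the bar of complex IV is above 0 at 24 h and between the DMSO libraries and below 0 at 48 h.

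In complex I, 3 of 36 members were higher and 8 lower by at least 0.32 at 200 nM 24 h, where 24.6% and 20.3% of all genes were, so the lower count was near the share of all genes. The median was -0.08. Of the 8, NDUFS3 is a core subunit of the arm that reduces ubiquinone, and the other 7 are accessory subunits, which have no redox centre and serve assembly and stability. NDUFS6, an accessory subunit that binds zinc near the NADH-oxidising end, had an FPKM of 105, 104 and 72.6 in DMSO, 100 nM and 200 nM at 24 h and 98.7, 91.9 and 80.2 in the same order at 48 h. It was thus low in both 200 nM libraries, with changes of -0.52 (counting SE 0.050) at 24 h and -0.30 at 48 h, and near the DMSO level at 100 nM. NDUFA13, also called GRIM-19, an accessory subunit that spans the membrane, had 75.3, 72.7 and 52.2 in DMSO, 100 nM and 200 nM at 24 h and 78.2, 84.6 and 61.0 in the same order at 48 h. Its changes of -0.52 and -0.35 in the 200 nM libraries had the same pattern, while at 100 nM they were -0.05 and 0.11.

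For NDUFC1, a small membrane subunit, the FPKM was 26.7, 22.3 and 17.0 at 24 h, then 26.4, 26.3 and 24.4 at 48 h, lowest by far at 200 nM 24 h. NDUFA6, which binds the mitochondrial acyl carrier protein, had 37.1, 33.1 and 25.9 at 24 h, then 33.2, 27.9 and 27.4 at 48 h. Against DMSO 48 h instead of DMSO 24 h, the changes of NDUFS6, NDUFA13, NDUFC1 and NDUFA6 at 200 nM 24 h were -0.44, -0.57, -0.61 and -0.35, all still past 0.32. The remaining 4 depended on the reference.

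NDUFS3 had an FPKM of 44.9, 34.2 and 28.8 in DMSO, 100 nM and 200 nM at 24 h and 33.0, 35.8 and 32.4 in the same order at 48 h. Its highest value was in DMSO 24 h and the other 5 libraries lay between 28.8 and 35.8. NDUFA9, an accessory subunit at the foot of the ubiquinone arm, had 24.0, 19.2 and 15.3 at 24 h, then 18.2, 17.6 and 19.7 at 48 h, and NDUFB2 had 34.8, 25.4 and 22.3 at 24 h, then 25.8, 27.6 and 19.1 at 48 h. NDUFB8, in the membrane arm, had 69.5, 56.3 and 52.6 at 24 h, then 63.6, 60.0 and 50.8 at 48 h. At 200 nM 24 h the changes of NDUFS3, NDUFA9, NDUFB2 and NDUFB8 were -0.62, -0.62, -0.62 and -0.39 against DMSO 24 h, but -0.19, -0.24, -0.20 and -0.27 against DMSO 48 h, short of 0.32. At 100 nM 24 h, the change of NDUFS3 was -0.38 against DMSO 24 h and 0.05 against DMSO 48 h. Between the DMSO libraries NDUFS3, NDUFB2 and NDUFA9 were themselves past 0.32, with -0.43, -0.42 and -0.38.

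The other direction past 0.32 at 200 nM 24 h was seen for 3 subunits of complex I. NDUFA8, which faces the intermembrane space, had an FPKM of 58.2, 64.3 and 75.2 in DMSO, 100 nM and 200 nM at 24 h and 57.2, 63.5 and 62.5 in the same order at 48 h. It was above both DMSO libraries in each of the 4 PCI-24781 libraries. Its change at 200 nM 24 h was 0.36 (counting SE 0.064), which fell short of 0.32 after median-of-ratios scaling. NDUFB3, in the membrane arm, had 65.0, 83.1 and 85.5 at 24 h, then 73.8, 63.3 and 73.9 at 48 h, and NDUFV3, at the NADH-oxidising end, had 29.4, 34.3 and 37.1 at 24 h, then 30.4, 29.4 and 31.5 at 48 h. Their changes at 200 nM 24 h were 0.39 and 0.33 against DMSO 24 h, and 0.21 and 0.28 against DMSO 48 h.

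**Figure D3:**
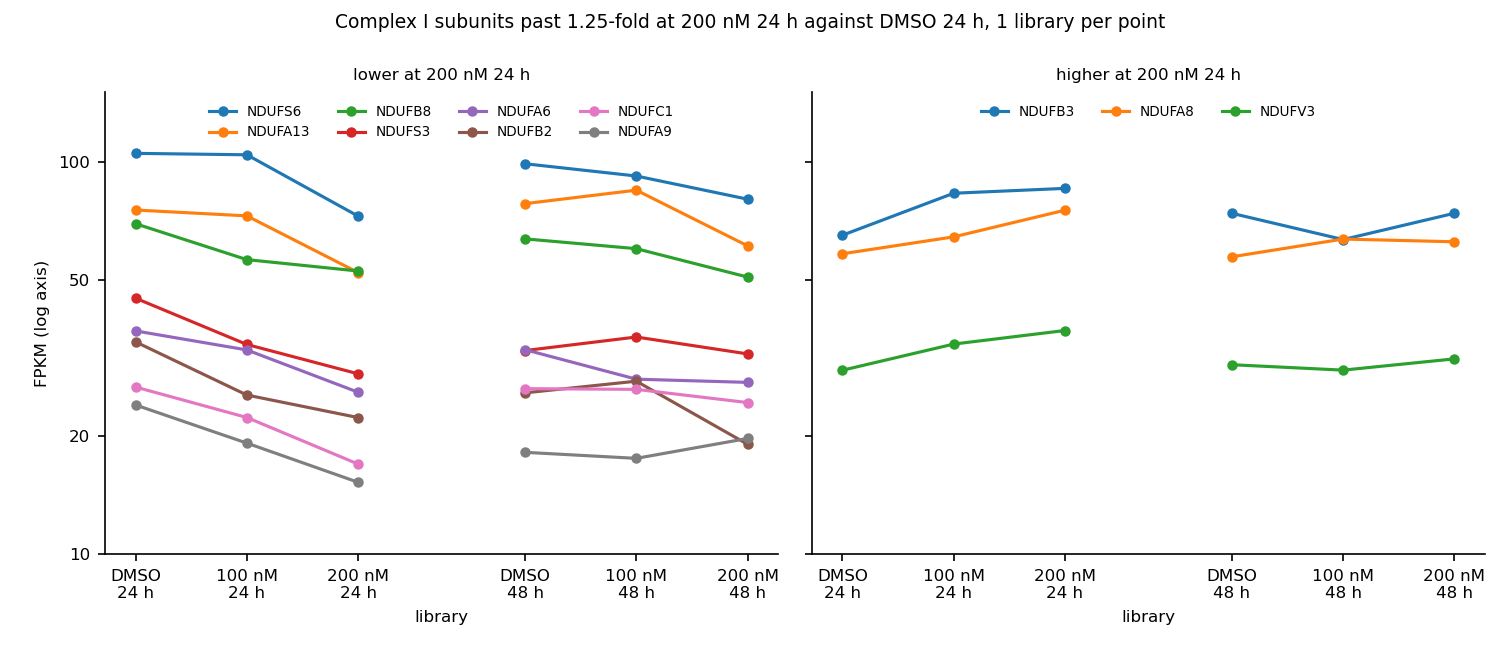
FPKM (log axis) in each of the 6 libraries of the complex I subunits past 0.32 at 200 nM 24 h, with 8 lower on the left and 3 higher on the right. NDUFS6 and NDUFA13 are lowest in the libraries at 200 nM of both times. Of the genes on the left, all but NDUFA13 are highest in DMSO 24 h.

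The core subunits carry the redox centres. NDUFV1, which holds the flavin that accepts electrons from NADH, had an FPKM of 45.6, 48.6 and 51.3 at 24 h, then 47.0, 47.5 and 45.7 at 48 h. NDUFS1, which holds iron-sulfur clusters, had 25.3, 24.1 and 24.1 at 24 h, then 22.1, 23.1 and 26.2 at 48 h. Of the 7 nuclear core subunits, NDUFS3 alone passed 0.32 in any comparison. NDUFV2 had 89.4, 92.5 and 93.6 at 24 h, then 91.9, 84.1 and 96.8 at 48 h, and NDUFS8, the most abundant of the core subunits, had 101, 97.4 and 94.1 at 24 h, then 112, 118 and 104 at 48 h. NDUFS7 had 30.6, 32.3 and 36.8 at 24 h, then 36.3, 33.6 and 30.0 at 48 h, with changes of 0.26 at 200 nM 24 h and -0.27 at 200 nM 48 h. Against the DMSO library of the other time these changes were 0.02 and -0.03. NDUFV1, NDUFV2, NDUFS1, NDUFS7 and NDUFS8 thus varied over the libraries by at most 1.26-fold.

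Past 0.32 at 48 h, complex I had NDUFB6 at 100 nM, with -0.37, and NDUFB2, NDUFA3, NDUFA13 and NDUFS5 at 200 nM, with -0.42, -0.37, -0.35 and -0.33. Against DMSO 24 h the change of NDUFB6 was -0.15, and those of NDUFB2, NDUFA3, NDUFA13 and NDUFS5 were -0.83, -0.01, -0.30 and -0.39, so NDUFB2 and NDUFS5 alone stayed past the limit. NDUFA3 had an FPKM of 66.2, 76.1 and 74.9 at 24 h, then 85.3, 80.3 and 65.7 at 48 h, so that its value at 200 nM 48 h was like that in DMSO 24 h. NDUFS5 had 111, 90.0 and 90.6 at 24 h, then 106, 108 and 84.6 at 48 h, lower than DMSO in 3 of the 4 PCI-24781 libraries.

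The promoters of subunit genes are known for sites of NRF1, of the ETS factor GABP and of YY1. RefSeq (GRCh38.p14) gave a window from 250 bases before to 50 bases after the start for 65 of the 81 members, and 62 of these had an FPKM of at least 1 in every library. The NRF1 core GCGCATGCG, read on both strands, was in the windows of 11 of these 62, or 17.7%, against 4.59% of 8981 genes at the same expression limit and 2.34% of all 27305 genes with a window. The ETS core CCGGAAG was in 20 members, or 32.3%, against 24.5% and 12.2%, and the YY1 core AAGATGGC in 12 members, or 19.4%, against 7.09% and 3.52%. A gene with several annotated starts was counted once if any window matched. Such matches are runs of letters and not measured binding.

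Of the 18 members past 0.32 at 200 nM 24 h, 14 had a window. Of the 14, 8 had one of these motifs in the whole window and 4 in the 200 bases before the start, and these 4 are shown. NDUFS3 (chr11:47578874-47579073 on the plus strand), NDUFA13 (chr19:19516025-19516224 on the plus strand) and COX6A1 (chr12:120437913-120438112 on the plus strand) hold the ETS core, and NDUFS6 (chr5:1801207-1801406 on the plus strand) holds the NRF1 core. Capitals mark the motif, on either strand, and each run ends at the base before the start.
NDUFS3: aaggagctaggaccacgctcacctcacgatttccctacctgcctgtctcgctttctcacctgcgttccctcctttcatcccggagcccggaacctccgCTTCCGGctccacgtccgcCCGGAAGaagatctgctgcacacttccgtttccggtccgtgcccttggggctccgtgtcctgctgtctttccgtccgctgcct
NDUFA13: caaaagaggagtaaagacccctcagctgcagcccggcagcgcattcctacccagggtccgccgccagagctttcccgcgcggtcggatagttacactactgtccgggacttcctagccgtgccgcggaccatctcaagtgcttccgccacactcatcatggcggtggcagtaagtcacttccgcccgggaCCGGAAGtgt
NDUFS6: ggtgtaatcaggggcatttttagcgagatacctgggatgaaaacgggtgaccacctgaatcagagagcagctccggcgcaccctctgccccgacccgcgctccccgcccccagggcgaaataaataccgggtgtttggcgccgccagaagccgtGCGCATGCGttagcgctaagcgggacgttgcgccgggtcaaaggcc
COX6A1: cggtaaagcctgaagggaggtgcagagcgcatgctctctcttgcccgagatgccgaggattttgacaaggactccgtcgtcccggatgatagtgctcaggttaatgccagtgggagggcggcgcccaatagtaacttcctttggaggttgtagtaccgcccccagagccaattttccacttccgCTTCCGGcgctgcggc

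In these runs the ETS core begins 102 and 83 bases before the start of NDUFS3, 10 before that of NDUFA13 and 16 before that of COX6A1, and the NRF1 core begins 46 before that of NDUFS6. At 200 nM 24 h the 11 members with the NRF1 core had a median change of -0.09, with 5 higher and 6 lower, against -0.01 for the 51 without. The 20 with the ETS core had -0.04 with 7 higher, against 0.00 for the 42 without, and the 12 with the YY1 core had 0.01 with 6 higher, against -0.01 for the 50 without. After median-of-ratios scaling all of these medians were below 0. At 100 nM 24 h, 7 of 11 members with the NRF1 core and 7 of 12 with the YY1 core were higher. Without these motifs it was 27 of 51 and 27 of 50, and for the ETS core 11 of 20 with it and 23 of 42 without. At 100 nM 48 h, 1 of 11 with the NRF1 core, 7 of 20 with the ETS core and 1 of 12 with the YY1 core were higher, against 17 of 51, 11 of 42 and 17 of 50 without. In DMSO 48 h, 7 of 11 with the NRF1 core and 7 of 12 with the YY1 core were higher than in DMSO 24 h. Without these motifs it was 28 of 51 and 28 of 50, and for the ETS core 11 of 20 with it and 24 of 42 without. The part of the DMSO 48 h library in the counts at 48 h was not tested.

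Complex II is the only complex with all subunits nuclear, and no member of it passed 0.32 in any comparison with DMSO of the same time. SDHA, the flavoprotein that oxidises succinate, had an FPKM of 71.3, 68.6 and 80.7 in DMSO, 100 nM and 200 nM at 24 h and 64.2, 74.6 and 68.2 in the same order at 48 h. SDHB, the iron-sulfur subunit, had 60.2, 57.9 and 65.1 at 24 h, then 59.1, 58.1 and 55.0 at 48 h. The membrane anchors SDHC and SDHD had 40.3, 35.8 and 35.5 at 24 h, then 35.2, 37.2 and 37.0 at 48 h, and 80.0, 73.5 and 71.7 at 24 h, then 75.9, 75.7 and 71.8 at 48 h, respectively. Against DMSO 48 h, SDHA at 200 nM 24 h was just past the limit, with 0.32. All 4 were slightly below DMSO 24 h at 100 nM 24 h, with a median of -0.09, and all 4 were also lower in DMSO 48 h than in DMSO 24 h, with -0.11.

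In complex III, 3 of the 4 larger subunits were lower at 24 h and some small ones higher. CYC1, the cytochrome that passes electrons to cytochrome c, had an FPKM of 168, 147 and 149 in DMSO, 100 nM and 200 nM at 24 h and 144, 150.4 and 134 in the same order at 48 h, highest in DMSO 24 h. UQCRFS1, the Rieske iron-sulfur protein, had 94.4, 88.1 and 78.9 at 24 h, then 82.7, 81.9 and 77.6 at 48 h, and UQCRC2, a core protein, had 52.5, 45.2 and 46.3 at 24 h, then 48.1, 50.6 and 47.7 at 48 h. All 3 were lower than DMSO 24 h at both doses, with changes of -0.18, -0.26 and -0.18 at 200 nM, and against DMSO 48 h the same values were 0.04, -0.07 and -0.05. The other core protein, UQCRC1, had 73.0, 82.8 and 85.4 at 24 h, then 82.6, 85.9 and 79.3 at 48 h, with 0.22 at 200 nM 24 h.

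Of the small subunits, UQCRH, the acidic hinge protein near cytochrome c, had 129, 141 and 149 at 24 h, then 130.2, 126 and 145 at 48 h, and UQCR11 had 47.0, 58.5 and 58.6 at 24 h, then 56.7, 49.2 and 60.3 at 48 h. Both were higher than DMSO 24 h at either dose, and UQCR11 came close to the limit of 0.32 with 0.31 and 0.31. Against DMSO 48 h these values of UQCR11 were 0.04 and 0.05, and between the DMSO libraries it differed by 0.27. The median of the 10 members was 0.12 for 100 nM and 0.10 for 200 nM at 24 h, or 0.06 and 0.04 after median-of-ratios scaling. For the 48 h libraries it was -0.03 and -0.04, the first of which was 0.01 after median-of-ratios scaling.

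UQCRHL, a near copy of UQCRH made from its mRNA, had the widest change of any member. Its FPKM was 2.76, 3.63 and 5.80 in DMSO, 100 nM and 200 nM at 24 h and 3.53, 2.70 and 2.97 in the same order at 48 h. At 200 nM 24 h it was 2.10-fold higher than in DMSO, a change of 0.85 on the log2(FPKM + 1) scale. Against DMSO 48 h the change was 0.59. The counting SE of 0.13 for the first change was calculated with a length of 2180 bases. In hg19 the gene spans chr1:16133657-16134194, which is shorter, so this SE understates the counting error. Reads of UQCRH can be assigned to such a copy, and UQCRH was far more abundant in every library, so the values of UQCRHL are uncertain. The same holds for ATP5MGL, a copy of ATP5MG, which stayed between 0.15 and 0.56.

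Complex IV gave the clearest difference between the times. Its 10 members with sufficient expression had a median change of 0.11 at 100 nM 24 h and 0.14 at 200 nM 24 h, with 8 and 7 of 10 higher. After 48 h the median was -0.16 for 100 nM and -0.08 for 200 nM, with 9 and 7 of 10 lower. Between the DMSO libraries it was 0.18, larger than any of the increases with PCI-24781. Against the other DMSO library the medians were -0.06 and -0.09 for the 24 h libraries and 0.03 and 0.16 for the 48 h libraries. Each of the 4 signs thus turned with the reference.

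The summed FPKM of complex IV shows this directly. It was 1660, 1785 and 1789 in DMSO, 100 nM and 200 nM after 24 h, and 1841, 1685 and 1816 in that order after 48 h. DMSO 24 h and 100 nM 48 h were the low libraries and the other 4 lay higher. As a share of all FPKM, complex IV ranged from 0.394% to 0.431%.

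COX6A1, the widely expressed form of subunit VIa, had the widest change among the 9 abundant members of complex IV. Its FPKM was 252, 295 and 372 in DMSO, 100 nM and 200 nM at 24 h and 308, 279 and 352 in the same order at 48 h, highest at 200 nM at both times. At 200 nM 24 h the change was 0.56 (counting SE 0.037) against DMSO 24 h and 0.27 against DMSO 48 h, and at 200 nM 48 h it was 0.19. The gene lies at chr12:120875893-120878545 in the hg19 coordinates of the files. COX7B, a small membrane subunit, had 99.0, 117 and 112 at 24 h, then 135, 105 and 129 at 48 h, with the highest value in DMSO 48 h and a change of -0.37 at 100 nM 48 h, or 0.08 against DMSO 24 h. COX6C and COX7A2 had 95.5, 104 and 103 at 24 h, then 124, 102 and 116 at 48 h, and 98.0, 116 and 109 at 24 h, then 121, 99.4 and 115 at 48 h, respectively, and were likewise highest in DMSO 48 h.

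Other subunits of the complex moved less. The most abundant, COX8A, had 363, 351 and 330.1 at 24 h, then 338, 349 and 315 at 48 h, COX7C had 319.6, 340.1 and 309.9 at 24 h, then 354, 315 and 366 at 48 h, and COX6B1, on the side facing cytochrome c, had 196, 203 and 183 at 24 h, then 204, 203 and 187 at 48 h. COX5A and COX5B, which face the matrix, had 119, 120.4 and 129.9 at 24 h, then 118, 109.9 and 109 at 48 h, and 116, 137 and 138 at 24 h, then 135, 122 and 127 at 48 h. None of these 5 passed 0.32 in any comparison.

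**Figure D4:**
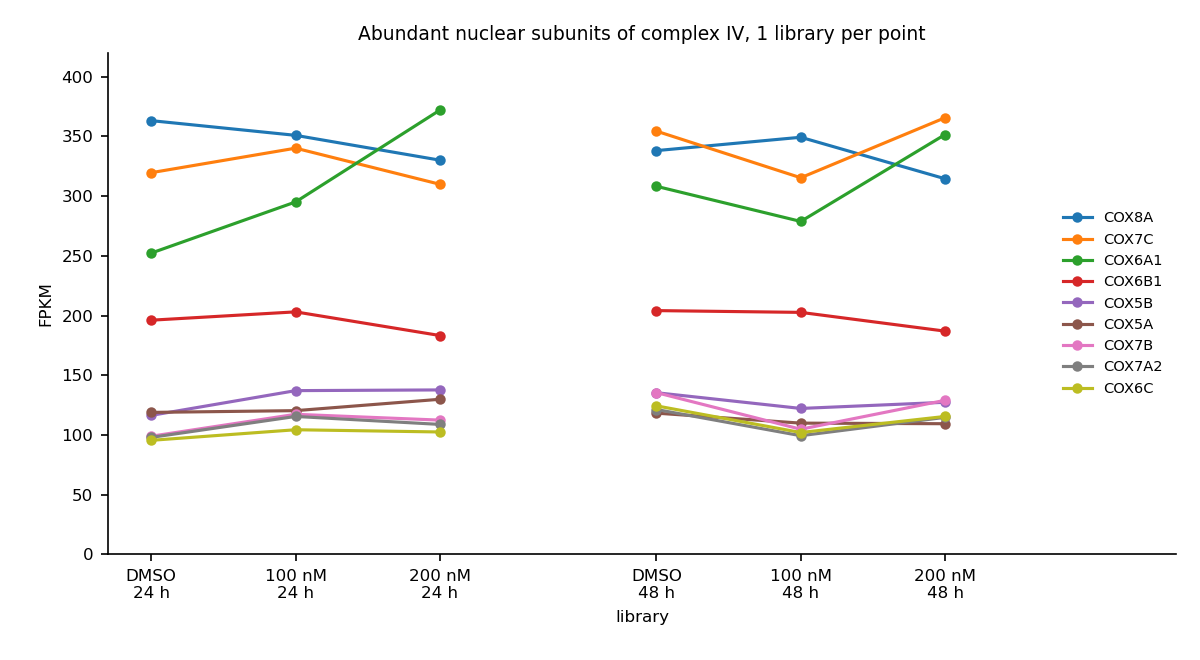
FPKM of the 9 abundant nuclear subunits of complex IV in each of the 6 libraries. COX6A1 goes from 252 in DMSO 24 h to 372 at 200 nM 24 h and crosses COX8A and COX7C, and the lower group of 5 genes lies between 95.5 and 138 throughout.

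The plot of complex IV levels leaves out the isoforms of other tissues, which were low. COX7A1, the form of heart and skeletal muscle, reached at most 0.37 and was 0 at 100 nM 24 h, while its partner COX7A2 had 98.0 to 121. COX7B2 and COX8C were listed at 0 in 5 libraries and had 0.11 at 100 nM 24 h, about 1 fragment. COX6B2, the testis form of COX6B1, had 1.02, 0.58 and 1.85 at 24 h, then 1.03, 0.67 and 1.05 at 48 h. It was counted past 0.32 at 100 nM 24 h, with -0.35, and in the other direction at 200 nM 24 h, with 0.50, at counting SEs of 0.18 and 0.18.

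ATP synthase had a median near 0 at 24 h, 0.01 at 100 nM (-0.05 after median-of-ratios scaling) and -0.01 at 200 nM. At 48 h it was -0.11 at 100 nM, with 14 of 17 members lower, and -0.03 at 200 nM, with 10 of 17 lower. In its catalytic head, ATP5F1B had an FPKM of 280.0, 272 and 302 at 24 h, then 237, 255 and 244 at 48 h. The central stalk subunits ATP5F1C and ATP5F1E had 128, 127 and 118 at 24 h, then 138, 118 and 120.0 at 48 h, and 248, 252 and 230.2 at 24 h, then 259, 236 and 269.5 at 48 h. ATP5F1D, the delta subunit of the stalk, stood out with 88.2, 110.3 and 123 in DMSO, 100 nM and 200 nM at 24 h and 115, 89.3 and 113 in the same order at 48 h.

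The changes of ATP5F1D, from 100 nM to 200 nM, were 0.32 and 0.48 after 24 h, the first just short of the limit, but -0.36 and -0.03 after 48 h. Its low libraries were DMSO 24 h and 100 nM 48 h, as for complex IV, and with the DMSO library of the other time the 4 values were -0.06, 0.09, 0.02 and 0.35. The peripheral stalk, which holds the head in place, was steady: ATP5PB, ATP5PD, ATP5PF and ATP5PO varied over the libraries by at most 1.23-fold, and ATP5PO by 1.08-fold. Of the small membrane subunits, ATP5MF was lower by over 0.32 at 200 nM at both times, with -0.39 and -0.33, and ATP5ME at 48 h, with -0.36. With the other DMSO library ATP5MF had -0.25 and -0.47 and ATP5ME -0.15, so the call of ATP5MF at 24 h and that of ATP5ME ended. The FPKM of ATP5MF was 156, 149 and 119 at 24 h, then 141, 138 and 112 at 48 h. These transcripts are among the shortest of the members.

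The ring that turns with proton flow is built from subunit c, and ATP5MC1, ATP5MC2 and ATP5MC3 encode the same mature protein with different import sequences. Their mRNAs moved apart at 24 h, while all 3 were lower than DMSO 48 h at both doses at 48 h. Against DMSO 24 h, the 48 h changes at 100 nM and 200 nM were -0.66 and -0.57 for ATP5MC1. They were 0.14 and 0.02 for ATP5MC2, and -0.05 and 0.10 for ATP5MC3. ATP5MC1 had an FPKM of 155, 140.2 and 117 in DMSO, 100 nM and 200 nM at 24 h and 114, 97.4 and 104 in the same order at 48 h. ATP5MC2 had 198, 197 and 163 at 24 h, then 225, 218 and 201 at 48 h, and ATP5MC3 had 49.7, 60.0 and 63.0 at 24 h, then 55.9, 47.9 and 53.4 at 48 h. At 200 nM 24 h the changes were -0.39, -0.28 and 0.34, and against DMSO 48 h they were 0.04, -0.46 and 0.17, so the direction for ATP5MC1 rested on the DMSO library.

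Added together, the 3 genes had 402, 397 and 344 in DMSO, 100 nM and 200 nM after 24 h, and 395, 363 and 358 after 48 h. ATP5MC1 supplied 38.5% of the sum in DMSO 24 h, 34.2% at 200 nM 24 h, but 28.9% in DMSO 48 h. ATP5MC3 supplied 12.4% in DMSO 24 h and 18.4% at 200 nM 24 h. ATP5MC2 was the main gene in every library, with 47.5% to 60.0%.

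**Figure D5:**
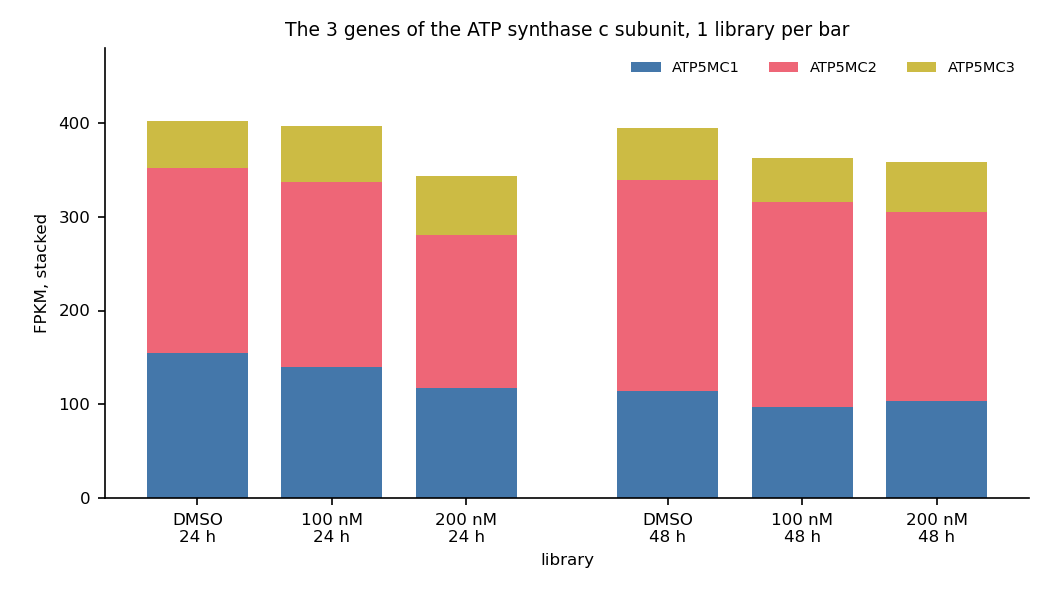
FPKM of the 3 genes that encode subunit c of ATP synthase, stacked, in each of the 6 libraries. The sum is 402 in DMSO 24 h, against 344 at 200 nM 24 h, and the part of ATP5MC1 is larger in the libraries at 24 h than in those at 48 h.

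Comparisons at 24 h and at 48 h share no library, so their directions can be set side by side. At 200 nM, 40 of 77 members changed in the same direction at both times, or 51.9%, against 70.4% of 11485 genes. At 100 nM it was 26 of 77, or 33.8%, against 35% of 11336 genes. Past 0.32 in the same direction at both times there were 3 members at 200 nM, NDUFA13, NDUFB2 and ATP5MF, all lower, and 0 at 100 nM. Of the 11485 genes, 572 were higher and 296 lower past 0.32 at both times at 200 nM, and of the 11336 genes 18 and 10 at 100 nM. Each of the 3 fell short of 0.32 at 1 of the times against the other DMSO library, with -0.30 at 48 h for NDUFA13 and -0.20 and -0.25 at 24 h for NDUFB2 and ATP5MF. Whether these shares differ beyond chance was not tested.

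Base composition of the transcripts moved with part of the changes. Over 75 members, the change at 200 nM 48 h and the GC content had a Pearson r of -0.43 and a Spearman rho of -0.46, and the 38 members with the higher GC content had a median of -0.10 against -0.01 for the other 37, the latter above 0 with TPM. Over 3906 genes whose FPKM averaged 20 or more, r was -0.18. At 100 nM 48 h the sign was opposite, with r of 0.26 for members and 0.29 for those genes. These are correlations across genes of the same libraries, which are not independent, and the part of base composition in the changes was not tested. At 24 h r was -0.08 and -0.01 for members.

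Several subunits fall outside the naming rule. COX4I1, the common form of the largest nuclear subunit of complex IV, had 136, 144 and 134 at 24 h, then 142, 139 and 133 at 48 h, and COXFA4, formerly NDUFA4, a subunit of the same complex, had 43.6, 54.6 and 52.0 at 24 h, then 52.7, 44.2 and 56.2 at 48 h. The acyl carrier protein NDUFAB1 had 49.1, 46.1 and 44.0 at 24 h, then 35.6, 39.5 and 42.0 at 48 h. CYCS, cytochrome c itself, had 30.6, 39.1 and 39.7 at 24 h, then 28.2, 19.8 and 27.2 at 48 h, with changes of 0.34 and 0.37 after 24 h, but -0.49 and -0.05 after 48 h. COXFA4 and CYCS thus were higher than DMSO at both doses at 24 h and, at 100 nM, lower at 48 h, like most of complex IV. Between the DMSO libraries COXFA4 was higher at 48 h by 0.27, as most of complex IV was, but CYCS was lower, with -0.11. ATP5IF1, the inhibitor of ATP synthase, had 85.5, 87.8 and 92.1 at 24 h, then 90.3, 92.3 and 73.5 at 48 h.

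Around the subunits, the assembly factors had a median change of -0.10 at 200 nM 24 h, with 4 of 52 higher and 13 lower by at least 0.32, beside 24.6% and 20.3% of all genes, shares that also apply to the counts that follow. For 77 mitochondrial ribosomal proteins, which make the mitochondrially encoded subunits, it was -0.13, with 1 higher and 19 lower, and for 37 proteasome subunits -0.21, with 1 higher and 13 lower. Cytosolic ribosomal proteins, at -0.07 with 2 of 78 higher and 7 lower, were nearer to the oxidative phosphorylation subunits in their median. Their share past 0.32 in either direction was 11.5%, against 23.4% for the subunits. Between the DMSO libraries the medians were -0.14, -0.18, -0.20 and 0.04 in the same order, beside 0.01 for the subunits. None of these differences between lists was tested.

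Regulators of mitochondrial genes gave mixed values. PPARGC1A, the coactivator PGC-1alpha, had an FPKM of 1.23, 2.03 and 2.58 in DMSO, 100 nM and 200 nM at 24 h and 2.66, 2.49 and 3.03 in the same order at 48 h, low throughout, and differed by 0.68 between 200 nM and DMSO at 24 h and by 0.71 between the DMSO libraries. NRF1, which binds the promoters of many subunit genes, had 6.09, 4.73 and 4.04 at 24 h, then 4.97, 4.89 and 4.41 at 48 h, and TFAM, which packages and transcribes mitochondrial DNA, had 22.7, 21.1 and 18.3 at 24 h, then 18.2, 17.1 and 18.2 at 48 h. Of the 13 regulators, 5 were higher and 3 lower by at least 0.32 at 200 nM 24 h (24.6% and 20.3% of all genes), with a median of -0.23, and of those above the expression limit 0 passed 0.32 at 48 h. The 13 enzymes of the tricarboxylic acid cycle, which supplies NADH and succinate, had a median of -0.04 at 200 nM 24 h, where SUCLG1 was higher with 0.35 and IDH3B lower with -0.52.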

How the data were processed

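RNA was measured in 6 libraries, 1 for each of DMSO, 100 nM and 200 nM PCI-24781 at 24 h and 48 h. The deposited FPKM values were calculated by the authors from libraries made after mRNA enrichment or rRNA depletion, rounded to 2 decimals. The submitters' processing notes name Bowtie2, RSEM and hg19, without versions or roles. The RefSeq gene table supplied current symbols by NCBI Gene ID for 16585 of 16623 genes. The members and lists were chosen with earlier results of these data known.

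From the FPKM, differences in log2(FPKM + 1) were taken without a test where the higher FPKM was 1 or more. The lower limit of 0.32 is 1.25-fold. Named genes were SDHA to SDHD, nuclear core subunits of complexes I and III, ATP5F1A and ATP5F1B, isoform sets, and the 2 most abundant and 2 most variable members of each complex. Others were named after their values were seen, as were all members past this limit. Depth was inferred from values below 0.4 of 271 to 321 genes per library with 1 transcript of 500 to 1500 bases, with lengths from GENCODE release 29, and is approximate. Counting errors follow from it. The calculation was tested on simulated data with known changes. Alternatives were pseudocounts of 0.1 and 0.01, TPM, median-of-ratios scaling, other filters, other DMSO references and a wider member list. Calculations ran in Python 3.11.15 with numpy 2.4.6 for arrays, pandas 2.3.3 for tables and matplotlib 3.10.9 for plots.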

Additional observations from a re-analysis of the deposited data

Results flagged for a closer look

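Some results had one direction at both doses at 24 h and the opposite direction at both doses at 48 h. With 1 library per condition, this difference between the times was not tested, and the comparisons of each time share a DMSO library. The value given for each is the mean change of both doses at 24 h minus that at 48 h, on the log2 scale.

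The median of complex IV differed by 0.24 and that of complex III by 0.14, both higher at 24 h and lower at 48 h. However, the median of complex III at 100 nM 48 h was above 0 after median-of-ratios scaling. With the DMSO library of the other time, that of complex III at 200 nM 48 h was 0.07, and every complex IV median changed sign. Among single genes of this kind, UQCRHL differed by 0.82, ATP5F1D by 0.60, ATP5MC3 by 0.45, COX7B by 0.43, COX7A2 by 0.38 and NDUFS7 by 0.35. The reverse, lower at 24 h and higher at 48 h, was seen for SDHC with -0.25 and NDUFS1 with -0.21. In DMSO 24 h, SDHC and NDUFS1 had a higher FPKM than in DMSO 48 h, and each of the other genes named here had a lower one. The part of the DMSO libraries in these differences was not tested.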

How the results depend on the processing

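With 1 library per condition, pairing was not possible. The reference mattered most. With the DMSO library of the other time, the median of complex IV became -0.0607 and -0.0947 for 100 nM and 200 nM after 24 h, and 0.0337 and 0.161 after 48 h. That of complex II became -0.0647 and -0.125 after 48 h, and that of complex III 0.0658 at 200 nM 48 h. NDUFS3 at 100 nM 24 h became 0.05, ATP5MC1 at 200 nM 24 h 0.0410, and COX7B and ATP5F1D at 100 nM 48 h 0.0819 and 0.0175. With the mean of both DMSO libraries, complex IV was -0.0223 at 200 nM 24 h and 0.0470 at 200 nM 48 h. The cause was not tested.

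Members past 0.32 at 100 nM 24 h were 2 higher with a pseudocount of 0.1, 3 with TPM, 0 with median-of-ratios scaling and 0 with the mean reference, and 6 lower with median-of-ratios scaling and 1 with either other reference. At 200 nM 24 h they were 5 higher with median-of-ratios scaling, 4 with the mean and 5 with the other reference, and 6 lower with the other reference. At 100 nM 48 h they were 5 lower with a pseudocount of 0.1, with TPM and with the other reference, and 1 with the mean. At 200 nM 48 h they were 1 higher with the mean and 4 with the other reference. Past 2-fold, 1 member appeared with a pseudocount of 0.1, UQCRHL at 200 nM 24 h. No other median moved by over 0.1 and no other count by over 1.5 times, also for members with a mean FPKM of at least 20, a limit chosen after the data were seen. Leaving out mitochondrially encoded genes could not be tried because none were in the files. Of 405 member changes, 38 had another sign under TPM or median-of-ratios scaling, the largest of them 0.0548 in size. Depth limits what can be said of COX6B2, COX7A1, COX7B2, COX8C and ATP5MGL.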

Other observations

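The members were spread over the genome, with 12 of 81 on chromosome 19, or 14.8%, against 7.48% of all genes measured, and 7 each on chromosomes 1 and 11. No test of this share was made.

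Genes joined in name to a member take part of its reads, and how they were divided cannot be told from FPKM. For NDUFC2-KCTD14 the FPKM lay between 23.1 at 100 nM 48 h and 25.6 at 200 nM 24 h, above the 14.87 and 19.98 of NDUFC2 itself in these libraries. ATP5MF-PTCD1 had 1.42, 0 and 0.10 in DMSO, 100 nM and 200 nM at 24 h, then 1.60, 0 and 1.05 at 48 h, beside 112 to 156 for ATP5MF.

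Members with a transcript of at most 700 bases had a median change of -0.09 at 200 nM 24 h over 23 genes, against 0.03 over the 53 longer ones. At 100 nM 24 h the medians were 0.01 and 0.02, and after median-of-ratios scaling all 4 were below 0. The 143 genes of that length whose FPKM averaged 20 or more, these 23 members included, had a median of -0.03 at 200 nM 24 h. All 3951 genes at that level had -0.03 too. Over 75 members the change at 200 nM 24 h and the log2 of the length had a Pearson r of 0.03. At 200 nM 48 h r was 0.31 for members and 0.17 for 3906 genes of that level. The length used for UQCRHL is too long and those for ATP5MC3 and ATP5F1E may be, and each counted as a longer gene.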
